A study of Rattus norvegicus with 484 samples.

Results

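The genes described here are the amino acid and glucose transporters of the solute carrier superfamily whose symbols on the array start with Slc1a, Slc2a, Slc3a, Slc5a, Slc6a, Slc7a, Slc36a, Slc38a or Slc43a. The array held 52 such genes among 10210 named genes, read by 78 probes. By family they were 5 Slc1a genes, 8 Slc2a, 2 Slc3a, 5 Slc5a, 13 Slc6a, 8 Slc7a, 1 Slc36a, 9 Slc38a and 1 Slc43a gene. A single probe read 38 of them, and for the other 14 the probes were averaged. The study gave rats agonists of peroxisome proliferator-activated receptors (PPARs) or retinoic acid and measured expression in liver and in 3 skeletal muscles that differ in fibre type, which its title names as the question. The muscles were the soleus, a slow muscle, and the quadriceps (quad) and extensor digitorum longus (EDL), both largely fast.

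Each of the 484 arrays set RNA from 1 rat, in Cy5, against a pool of vehicle-treated rats of the same tissue and day, in Cy3. The doses are in mkd, the unit of the labels. Liver, soleus and quad came from rats given vehicle, fenofibrate at 400 mkd, bezafibrate at 250 mkd, Wy-14643 at 100 mkd, rosiglitazone at 100 mkd or retinoic acid at 25 mkd, for 2, 3, 4, 5 or 6 days. In that order of treatments, liver had 73, 14, 15, 15, 15 and 15 arrays, soleus 35, 19, 20, 18, 20 and 20, and quad 63, 18, 20, 16, 16 and 18. For EDL, vehicle RNA was present only as the pool. Its rats had lower doses, namely fenofibrate at 50 mkd (9 arrays), bezafibrate at 25 mkd (9), Wy-14643 at 10 mkd (12), rosiglitazone at 10 mkd (9) and retinoic acid at 2.5 mkd (11), on days 4 to 6 and, for Wy-14643 and retinoic acid, also day 3, plus 4 arrays of rosiglitazone at 100 mkd on day 4. The pools held 14 to 16 rats for liver and EDL, 11 to 15 for quad and 10 to 14 for soleus. The labels used here name no strain, sex or age. Fenofibrate, bezafibrate and Wy-14643 (pirinixic acid) act on PPAR alpha, rosiglitazone on PPAR gamma, and retinoic acid on the retinoic acid receptors.

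Solute carriers move small molecules across membranes either down their gradients or coupled to sodium, protons or a second amino acid. The Slc2a (GLUT) proteins carry sugars by facilitated diffusion, the Slc5a proteins couple sugars and vitamins to sodium, and the Slc1a, Slc6a, Slc36a, Slc38a and Slc43a proteins carry amino acids or related solutes. The Slc7a light chains work as exchangers, several of them bound to a heavy chain encoded by Slc3a2 or Slc3a1. The liver takes up dietary amino acids and sugars and releases glucose in fasting, whereas muscle takes up glucose mainly through the insulin-responsive Slc2a4.

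Values are differences in log2 ratio between treated arrays and single vehicle arrays of the same tissue and day, averaged over days with each day weighted equally. They were tested with limma, with Benjamini-Hochberg adjustment over all features of a comparison and a threshold of 0.05. A ratio to a pool of the same tissue gives no level, so genes cannot be ranked by abundance, and whether a tissue expresses its own markers cannot be read from it. In liver the PPAR alpha target Acot1 rose by 2.92 with fenofibrate, 3.20 with bezafibrate and 3.20 with Wy-14643, which fits Cy5 over Cy3 as the direction of the ratio. On 8 arrays the values spread far more widely than on others or markers of another tissue stood high. They were soleus vehicle rats 1022, 1034 and 1061, quad vehicle rat 1068, 1 quad array each of fenofibrate, bezafibrate and retinoic acid, and liver rosiglitazone rat 1376 of day 4. All 5 compounds of a tissue were set against the same vehicle arrays, so their values are given side by side and are not independent. In whole tissue, a lower value cannot be told apart from fewer cells of the type that expresses the gene.

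Of the 52 transporters, 38 passed the test in at least 1 of the 15 comparisons of a compound with vehicle in liver, soleus and quad, and 35 did so in liver. The other 14 passed nowhere, among them the basal glucose transporter Slc2a1, the neutral amino acid exchanger Slc1a5, and Slc38a1 and Slc38a5, which carry glutamine. In liver, 51 were tested. Slc38a4, a carrier of neutral and cationic amino acids, had a value on 111 of 147 liver arrays and was left out there. Single liver comparisons called 21.3% to 40.2% of all features. The share of features called in at least 1 comparison is not given here. The counts of 38 and 35 are therefore not read as particular to transporters.

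Liver calls went mostly downward. With fenofibrate 21 of 51 transporters were called, 5 higher and 16 lower, where 37.0% of all features were called. With bezafibrate it was 12, 2 of them higher and 10 lower, against 21.3% of features. Wy-14643 gave 18 calls, 2 higher and 16 lower, against 40.2%. Rosiglitazone gave 16 calls, 5 higher and 11 lower, against 22.7%, and retinoic acid 22, 5 higher and 17 lower, against 29.2%. With the 3 PPAR alpha agonists these were 41.2%, 23.5% and 35.3% of transporters, near the shares of all features, and with rosiglitazone and retinoic acid 31.4% and 43.1%, above them. By direction, the lower calls were 31.4% of transporters against 19.3% of features with fenofibrate, 31.4% against 21.2% with Wy-14643 and 33.3% against 15.0% with retinoic acid. With bezafibrate they were 19.6% against 9.89%, and with rosiglitazone 21.6% against 12.4%. With fenofibrate, bezafibrate, Wy-14643, rosiglitazone and retinoic acid, the median transporter differed from vehicle by -0.06, -0.04, -0.07, -0.02 and -0.03. The median feature differed by 0.00, -0.01, -0.01, 0.00 and 0.00 in that order. Without liver rosiglitazone rat 1376, the rosiglitazone calls numbered 13.

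**Figure D1:**
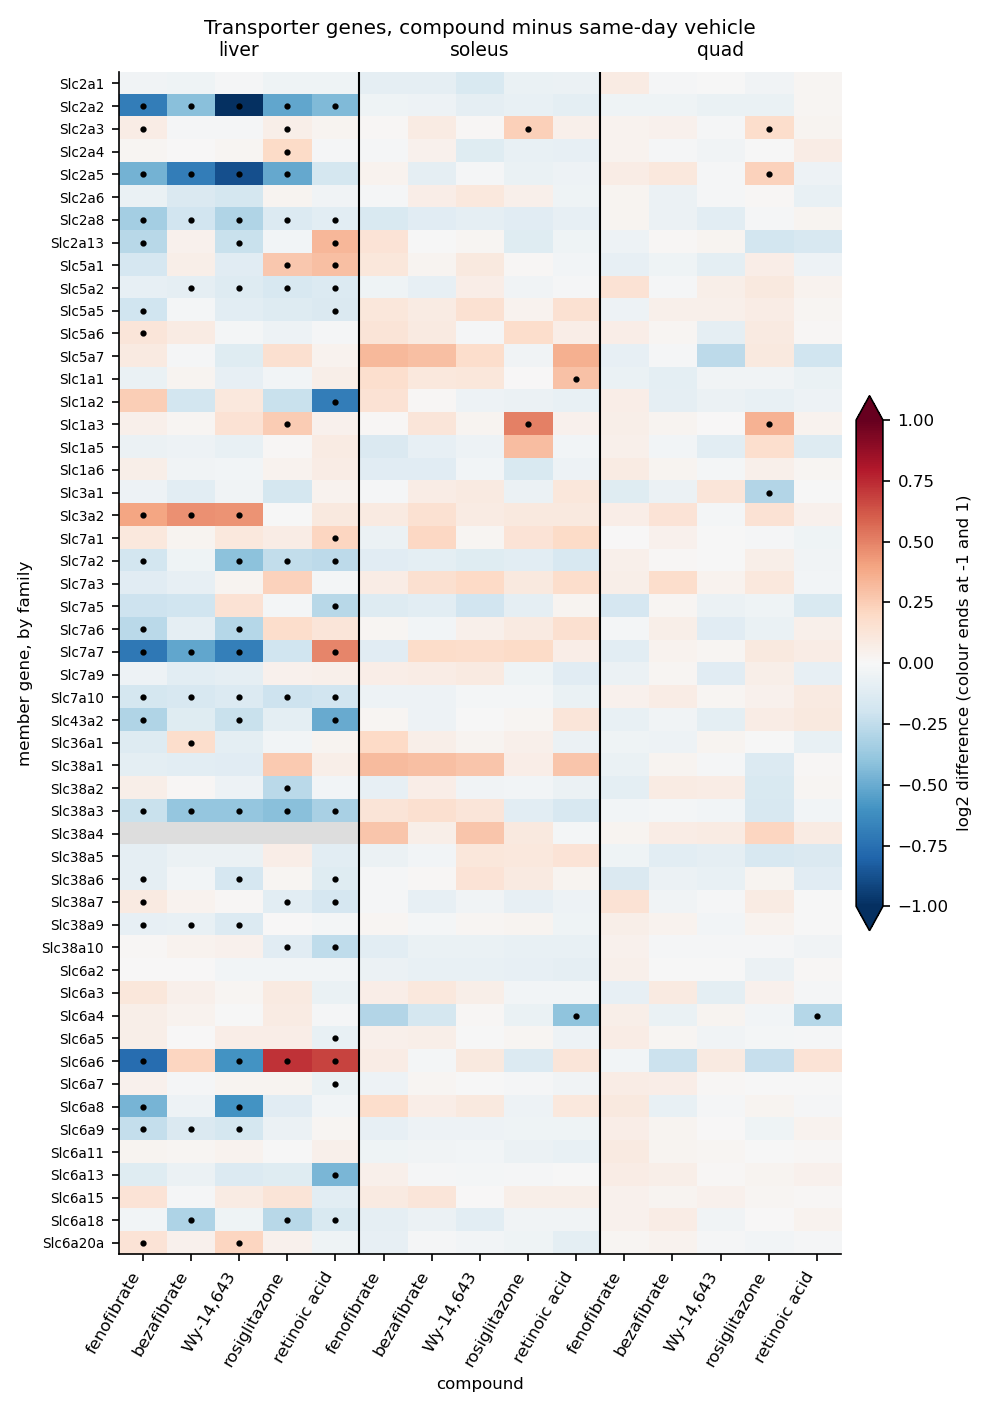
The colour scale gives the log2 difference from vehicle for the transporters (vertical axis) in each tissue and compound (horizontal axis), with marks where the adjusted p was 0.05 or less. Most marks lie in the liver columns and most of those are lower values, whereas the soleus and quad columns hold few.

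Among the sugar carriers, the facilitative glucose transporter Slc2a2 (GLUT2), the main hepatocyte route for glucose in both directions, fell furthest. Its liver vehicle arrays ran from -0.92 to 0.60 with a median of -0.06. The Wy-14643 arrays ran from -2.20 to -0.73 with a median of -1.30, and 12 of 15 lay below the lowest vehicle array. The difference was -1.25 (SE 0.13, n = 15, adjusted p = 2.99e-15, limma), which is 0.42 of the vehicle value, and all 15 arrays lay below the mean of their day's vehicle arrays. With fenofibrate the arrays ran from -1.76 to -0.04 around a median of -0.60. They overlapped vehicle, yet 14 of 14 were below their day's vehicle mean, and the difference was -0.69 (adjusted p = 9.24e-06). Smaller falls passed with bezafibrate (-0.42, adjusted p = 0.0107) and retinoic acid (-0.44, adjusted p = 0.00474). Rosiglitazone gave -0.52 (adjusted p = 0.00173) with all arrays and -0.33 (adjusted p = 0.0347) without rat 1376, whose array held the lowest value, -3.28. The bezafibrate call ended without day 2 (adjusted p = 0.115), that of retinoic acid without day 3 (adjusted p = 0.144) and that of rosiglitazone without day 4 (adjusted p = 0.0963). All 5 Slc2a2 probes with enough values were lower with Wy-14643, between -1.60 and -1.03.

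The promoter of Slc2a2 is shown with those of Slc3a2 and Slc7a7, a heavy chain and its light chain that moved in opposite directions with the PPAR alpha agonists and are described below. Each run is the 250 bases before a transcript start listed by RefSeq for GRCr8, the most upstream one where several are listed, on the gene's strand. For Slc3a2 that start is the outer edge of the gene, whereas the single start listed for Slc2a2 lies 2486 bases inside the gene's annotated bounds and that for Slc7a7 17049 bases inside them. No data here show which start these tissues use. Capitals mark a match to the core of the antioxidant response element, TGACNNNGC, on either strand, the site of the stress factor Nrf2.
Slc2a2, chr2:113540120-113540369, plus strand: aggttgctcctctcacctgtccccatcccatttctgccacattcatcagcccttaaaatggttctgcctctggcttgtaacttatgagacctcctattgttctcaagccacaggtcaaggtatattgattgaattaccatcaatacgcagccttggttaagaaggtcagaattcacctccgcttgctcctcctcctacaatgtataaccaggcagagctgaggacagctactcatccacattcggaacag
Slc3a2, chr1:215048065-215048314, minus strand: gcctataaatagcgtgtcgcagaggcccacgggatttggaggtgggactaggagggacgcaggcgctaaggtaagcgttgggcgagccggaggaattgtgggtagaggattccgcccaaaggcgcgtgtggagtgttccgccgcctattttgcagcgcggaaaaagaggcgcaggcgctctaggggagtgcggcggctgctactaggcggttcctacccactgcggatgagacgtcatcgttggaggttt
Slc7a7, chr15:31835684-31835933, minus strand: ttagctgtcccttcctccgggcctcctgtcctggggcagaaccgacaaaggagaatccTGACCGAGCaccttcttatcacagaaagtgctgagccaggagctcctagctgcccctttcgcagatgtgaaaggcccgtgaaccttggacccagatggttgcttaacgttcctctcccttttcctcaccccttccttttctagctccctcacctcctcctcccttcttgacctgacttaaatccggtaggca
The one match, in Slc7a7, lies 192 to 184 bases before that listed start. Windows were found for 40 of the 52 transporters, and for 19 of them the start lay inside the gene's bounds. TGACNNNGC occurs in 8 of the 40, or 9 when any listed start is taken, since the window of the inner start of Slc3a2 also holds it, and in 10.2% of all 27457 promoters searched. TGATGNAA, the core of the site bound by the stress factor Atf4, occurs in 2 of the 40 (Slc38a1 and Slc7a1) and in 3.28% of all. The direct repeat of AGGNCA spaced by 1 base, the form of site that PPARs bind with the retinoid X receptor, occurs in none of the 40 and in 0.35% of all. These matches describe letters in a window and are no sites of binding.

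Slc2a5 (GLUT5), the fructose transporter, had liver vehicle arrays from -0.68 to 0.59. With Wy-14643 its arrays ran from -1.43 to -0.36 around -0.88, and 10 of 15 lay below the lowest vehicle array. The difference was -0.88 (adjusted p = 1.22e-12, limma). It was -0.69 with bezafibrate (adjusted p = 4.69e-08), -0.47 with fenofibrate (adjusted p = 0.000146) and -0.51 with rosiglitazone (adjusted p = 0.000132). The 3 probes of Slc2a5 did not move together. With Wy-14643 they gave -1.97, -0.67 and 0.01, and the call ended when the probe with the fewest missing values stood for the gene (0.005, adjusted p = 0.965). Which probe reads the fructose transporter best was not tested.

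The intracellular hexose transporter Slc2a8 fell by less but with a narrow spread. It was -0.34 with fenofibrate (adjusted p = 1.2e-11), -0.30 with Wy-14643 (adjusted p = 2.09e-10), -0.19 with bezafibrate, -0.14 with rosiglitazone and -0.11 with retinoic acid. Slc2a13, which carries myo-inositol with protons, moved in both directions. It fell with fenofibrate (-0.28, adjusted p = 0.00667) and Wy-14643 (-0.22, adjusted p = 0.0225) and rose with retinoic acid (0.33, adjusted p = 0.000713), where 14 of 15 arrays lay above their day's vehicle mean. Both falls were lost without day 6 (adjusted p = 0.105 and 0.311). The intestinal-type sodium-glucose cotransporter Slc5a1 rose with retinoic acid (0.30, adjusted p = 0.00289) and rosiglitazone (0.27, adjusted p = 0.0131). The retinoic acid call was lost without day 5 (limma adjusted p = 0.0588). That of rosiglitazone was lost without day 3 or day 6 (limma adjusted p up to 0.0921). Slc5a2, the renal relative of Slc5a1, gave -0.08 to -0.16, and passed with each compound but fenofibrate. The insulin-responsive Slc2a4 passed in liver with rosiglitazone alone (0.19, adjusted p = 0.00392), and the value was 0.04 without rat 1376. Slc2a1 lay between -0.046 and -0.015 and did not pass.

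Slc3a2 (4F2hc), the heavy chain that brings several Slc7a exchangers to the cell surface, was higher with the 3 PPAR alpha agonists. Its vehicle arrays ran from -0.74 to 0.40 around 0.06. The bezafibrate arrays ran from 0.03 to 0.93 around 0.47 and overlapped vehicle, with 10 of 15 above the highest vehicle array. The difference was 0.46 (adjusted p = 1.17e-06). Wy-14643 arrays ran from -0.28 to 0.81 around 0.58, also with 10 of 15 above the highest vehicle array, for a difference of 0.45 (adjusted p = 5.43e-07). Fenofibrate gave 0.39 (adjusted p = 2.59e-05), with 13 of 14 arrays above their day's vehicle mean. Rosiglitazone (0.00) and retinoic acid (0.10, adjusted p = 0.375) did not pass. The other heavy chain, Slc3a1, partner of the cystine carrier Slc7a9, gave -0.17 with rosiglitazone (adjusted p = 0.272) and -0.45 without rat 1376 (adjusted p = 3.62e-06).

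The light chain Slc7a7 (y+LAT1), which binds Slc3a2 and exchanges cationic for neutral amino acids, went the other way from its heavy chain. Its vehicle arrays ran from -0.76 to 1.14 around -0.06. Fenofibrate arrays ran from -1.44 to 0.09 around -0.80, and 8 of 14 lay below the lowest vehicle array. The difference was -0.71 (adjusted p = 6.7e-07). Wy-14643 gave -0.68 (adjusted p = 5.14e-07), with 15 of 15 arrays below their day's vehicle mean, and bezafibrate -0.52 (adjusted p = 0.000334). With retinoic acid Slc7a7 rose instead, by 0.49 (adjusted p = 0.000505). Those arrays ran from -0.42 to 1.37 around 0.55, overlapped vehicle, and 11 of 15 lay above their day's vehicle mean. Macrophages are among the cells known to express Slc7a7. Of 10 macrophage and leukocyte markers measured in liver, 9 fell with fenofibrate and 9 with Wy-14643, with list medians of -0.40 and -0.42. The counts of this list with bezafibrate and retinoic acid are not given here. The part of macrophages in the values of Slc7a7 was not tested.

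The remaining Slc7a genes moved less. Slc7a2 (CAT2), a carrier of arginine and other cationic amino acids that liver expresses, was -0.41 with Wy-14643 (adjusted p = 2.04e-07) and -0.26 with retinoic acid (adjusted p = 0.00169). With rosiglitazone it was -0.25 (adjusted p = 0.00548), a call lost without rat 1376 (adjusted p = 0.0985). Its relative Slc7a1 passed with retinoic acid only, and upward (0.22, adjusted p = 0.00245). Slc7a6, the near relative of Slc7a7, fell with Wy-14643 (-0.28, adjusted p = 0.0141) and fenofibrate (-0.27, adjusted p = 0.028). Slc7a5 (LAT1), which carries leucine and other large neutral amino acids, passed with retinoic acid alone (-0.28, adjusted p = 0.0223), and not without day 3 (adjusted p = 0.342). Slc7a10, which carries small neutral amino acids, gave -0.13 to -0.21 and passed with each compound, but its 2 probes disagreed. They gave -0.41 and 0.05 with fenofibrate. Slc7a8 and Slc7a11 were not among the measured genes.

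**Figure D2:**
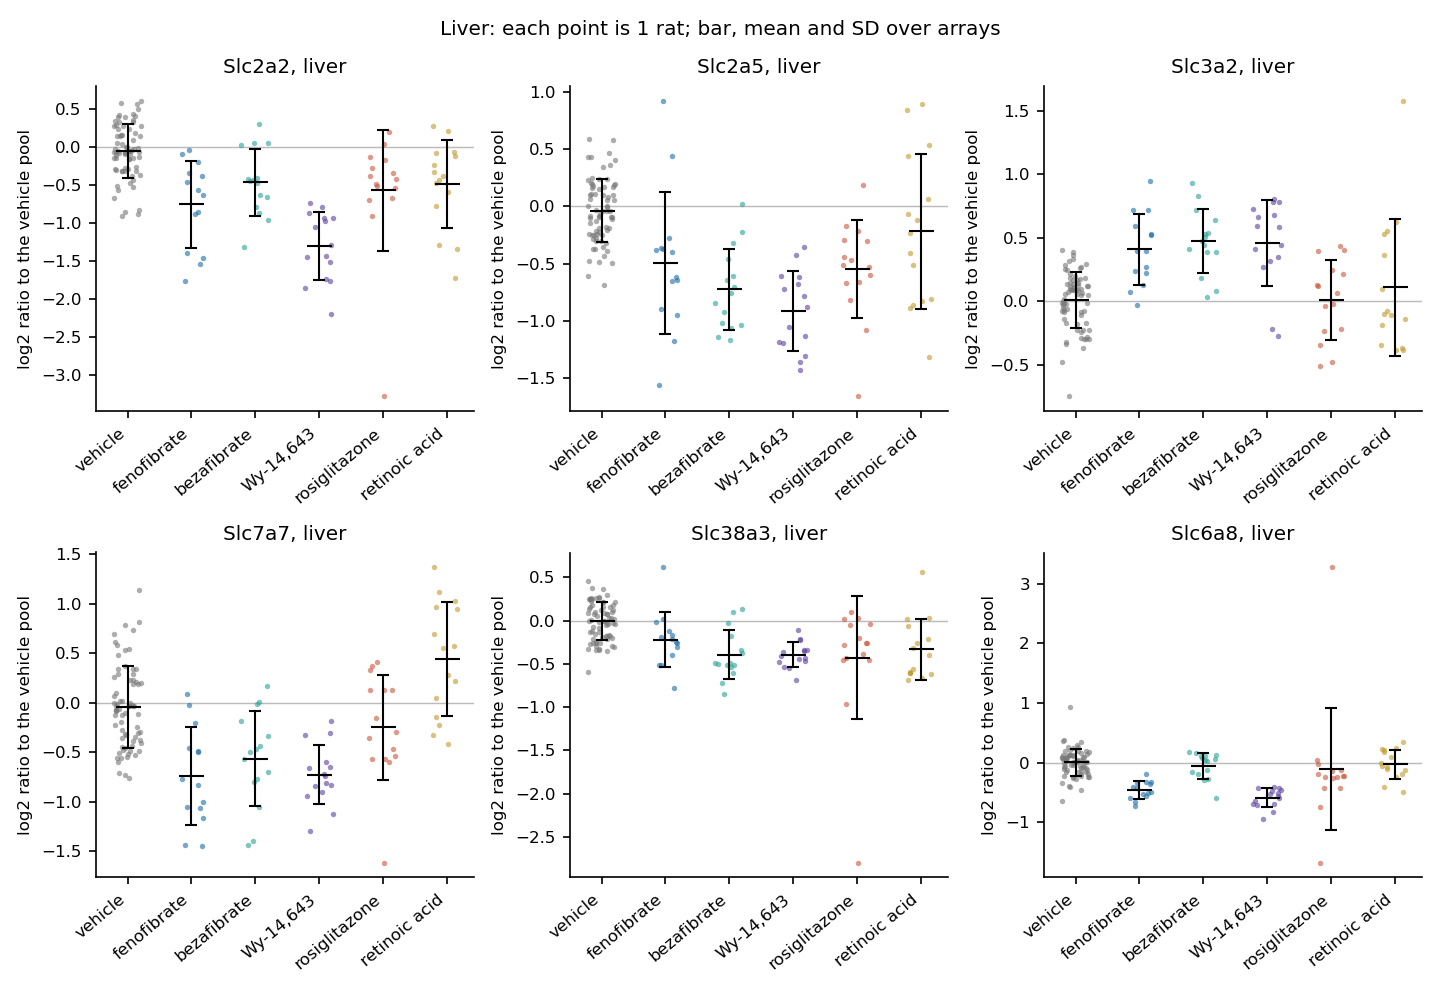
Each point is 1 liver array, with the log2 ratio to the vehicle pool on the vertical axis and the 6 treatments on the horizontal axis, for the transporters that the liver results turn on. The Slc2a2 points of Wy-14643 lie lowest as a group. Fenofibrate points overlap them, and 1 rosiglitazone array lies below them at -3.28. The Slc3a2 points of the 3 PPAR alpha agonists lie above most vehicle points.

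Of the carriers of glutamine and large neutral amino acids, Slc43a2 (LAT4), which exports leucine and its like, fell with retinoic acid. Vehicle arrays ran from -0.29 to 0.41 around -0.01. Retinoic acid arrays ran from -1.15 to -0.26 around -0.46, and 13 of 15 lay below the lowest vehicle array. The difference was -0.51 (adjusted p = 2.57e-15), beside -0.30 with fenofibrate (adjusted p = 1.29e-06) and -0.22 with Wy-14643 (adjusted p = 0.0002). Slc38a3 (SNAT3), the sodium-coupled glutamine carrier of hepatocytes, was lower with every compound. It was -0.42 with rosiglitazone (adjusted p = 0.000205; -0.24 without rat 1376), -0.39 with Wy-14643 (adjusted p = 9.66e-05) and -0.39 with bezafibrate (adjusted p = 0.000312). Retinoic acid gave -0.32, lost without day 6 (adjusted p = 0.0776), and fenofibrate -0.22, lost without day 3, 5 or 6 (adjusted p up to 0.207). Slc38a2 (SNAT2), an amino acid carrier that starvation induces, passed with rosiglitazone alone (-0.27, adjusted p = 0.0115). This call was lost without day 5 and with arrays scaled to one spread (limma adjusted p up to 0.0742). The remaining changes of this family were small. Slc38a9, a lysosomal arginine sensor, gave -0.13 with Wy-14643 (adjusted p = 4.86e-06), Slc38a6 -0.17 with Wy-14643 (adjusted p = 2.12e-06), and Slc38a10 -0.26 with retinoic acid (adjusted p = 9.1e-07). With 1 probe for Slc38a10 the value was -0.07 and did not pass (adjusted p = 0.179). The lysosomal glutamine carrier Slc38a7 fell with retinoic acid (-0.17, adjusted p = 3.65e-05) and was 0.09 with fenofibrate (adjusted p = 0.0319), a call lost in 5 of 13 alternatives (adjusted p up to 0.221). The proton-coupled carrier Slc36a1 passed only with bezafibrate (0.17, adjusted p = 0.024).

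Among the glutamate carriers of Slc1a, Slc1a2 (GLT-1), which in liver takes up glutamate around the central vein, fell with retinoic acid. Vehicle arrays ran from -0.89 to 0.70, and retinoic acid arrays from -1.60 to 0.14 around -0.62. The difference was -0.69 (adjusted p = 3.44e-07), with 12 of 15 arrays below their day's vehicle mean. It did not pass with the other compounds, whose values lay between -0.23 (rosiglitazone) and 0.24 (fenofibrate). Slc1a3 (GLAST) was called with rosiglitazone (0.25, adjusted p = 0.00458), a call lost without rat 1376 at 0.12. Slc1a5 lay between -0.07 and 0.08 and did not pass.

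The Slc6a carriers of amino acid derivatives held both large and uncertain changes. Slc6a8, the creatine transporter, had vehicle arrays from -0.64 to 0.93 around 0.02. Wy-14643 arrays ran from -0.94 to -0.41 around -0.55, and each lay below its day's vehicle mean. The difference was -0.59 (adjusted p = 2.52e-07), and fenofibrate gave -0.46 (adjusted p = 0.00012). Rosiglitazone gave -0.11 with all arrays, 1 of which stood at 3.28, and -0.35 without it (adjusted p = 7.45e-05). Slc6a6, the taurine transporter, had the opposite signs under different compounds. It was -0.77 with fenofibrate (adjusted p = 0.00622), -0.60 with Wy-14643 (adjusted p = 0.0263), 0.72 with rosiglitazone (adjusted p = 0.0144) and 0.68 with retinoic acid (adjusted p = 0.015). Its vehicle arrays spread from -1.29 to 1.93, and their SD within days was 0.75, above that of 99.2% of features, whose median was 0.15. Each of the 4 calls was lost under at least 1 alternative, such as arrays scaled to one spread for fenofibrate (adjusted p = 0.147) and Wy-14643 (adjusted p = 0.264), or a left-out day 4 for rosiglitazone (adjusted p = 0.062) and retinoic acid (adjusted p = 0.12). Slc6a13 (GAT2), the GABA and taurine carrier of hepatocytes, was -0.46 with retinoic acid (adjusted p = 8.05e-06), with 15 of 15 arrays below their day's vehicle mean. The glycine carrier Slc6a9 was -0.24 with fenofibrate, -0.18 with Wy-14643 and -0.14 with bezafibrate, all past the threshold. Slc6a18 was -0.305 with bezafibrate (adjusted p = 3.58e-05) and -0.28 with rosiglitazone (adjusted p = 0.000382). The proline carrier Slc6a20a rose with Wy-14643 (0.22, adjusted p = 1.62e-08) and fenofibrate (0.14, adjusted p = 0.000541), though with 1 of its 2 probes the Wy-14643 value was 0.03 (adjusted p = 0.648).

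Over days 2 to 6, most liver values showed no tested trend. The Wy-14643 value of Slc2a2 was -1.43, -1.51, -0.90, -0.99 and -1.44 from day 2 to day 6, and each day passed on its own. A linear change per day was called for 2 transporters, both with retinoic acid in liver, where 9.38% of features were called. Slc38a3 changed by -0.19 per day (SE 0.06, adjusted p = 0.0318), from 0.27 on day 2 to -0.65 on day 6. Slc38a6 changed by 0.09 per day (SE 0.02, adjusted p = 0.0029), from -0.30 to 0.09. In every other compound and tissue the count was 0, with 0 to 12 transporters at an unadjusted p of 0.05 or less in limma. Of all features, 0.446%, 0.0598%, 0.158% and 0.196% were called in liver with fenofibrate, bezafibrate, Wy-14643 and rosiglitazone, 1.55% in quad with fenofibrate, and 0 in the remaining comparisons of soleus and quad.

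**Figure D3:**
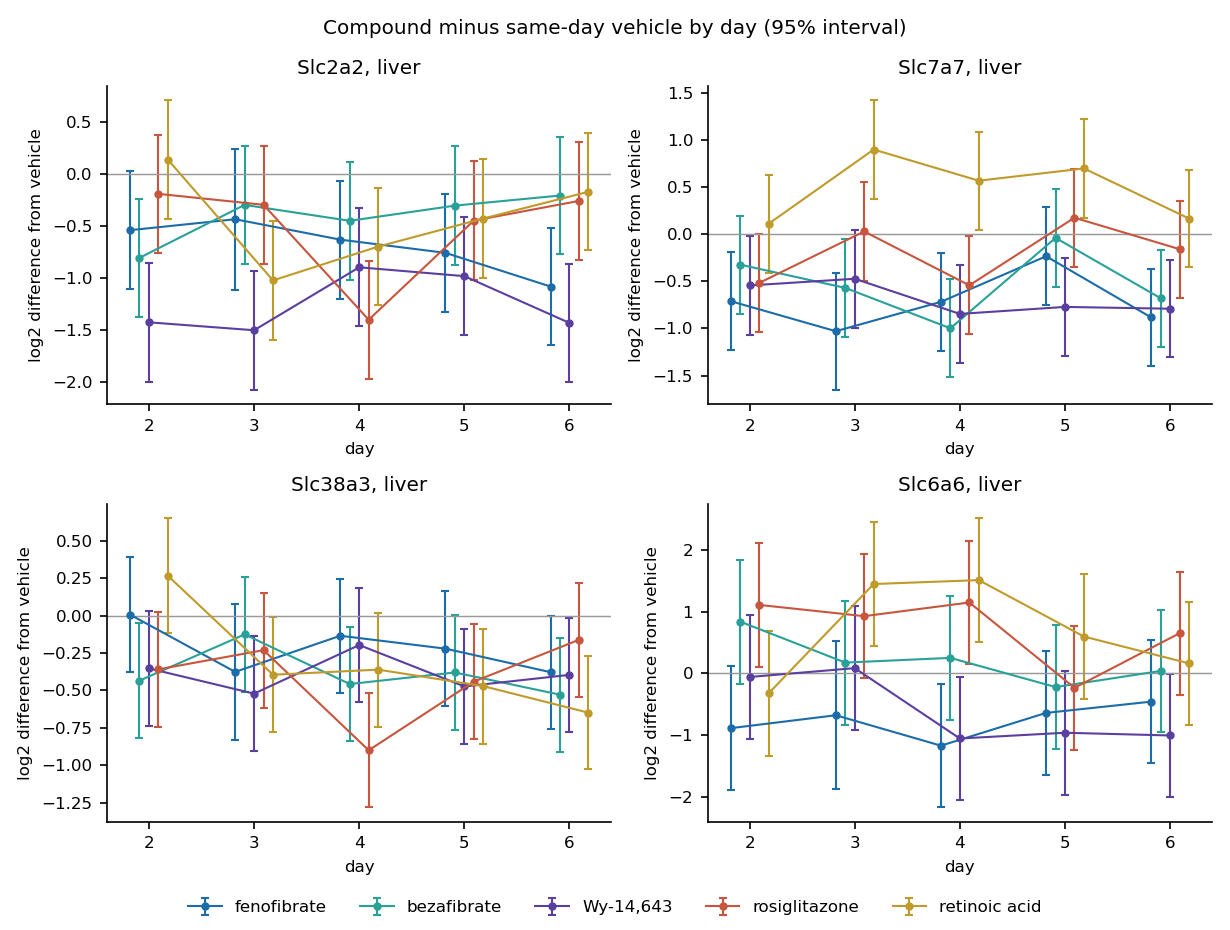
Points are the log2 difference from same-day vehicle in liver with its 95% interval (vertical axis) on days 2 to 6 (horizontal axis) for Slc2a2, Slc7a7, Slc38a3 and Slc6a6, with 1 line per compound. Slc2a2 with Wy-14643 lies below 0 on each day, and Slc38a3 with retinoic acid goes from 0.27 to -0.65.

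Only Wy-14643 and rosiglitazone shared a dose, 100 mkd, and the days, so only they were set against each other in liver. This contrast was added after other results had been seen. It called 18 transporters, 5 higher and 13 lower with Wy-14643, against 30.1% of features, and 15 without rat 1376. Slc2a2 was lower with Wy-14643 by -0.73 (SE 0.17, adjusted p = 0.000248) and Slc6a8 by -0.48 (adjusted p = 0.00186). Over 12 alternatives, which included leaving out rat 1376, the Slc6a8 difference ran from -0.61 to -0.25. It passed in each (limma adjusted p up to 0.035). Slc6a6 differed by -1.32 (adjusted p = 0.000173) and Slc7a7 by -0.48 (adjusted p = 0.00948), the latter lost without day 5 (adjusted p = 0.104). Slc3a2 was higher with Wy-14643 by 0.45 (adjusted p = 0.000165). The doses of the other compounds differed, and no contrast between them was made.

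In the muscles few transporters passed. In soleus 2 of 52 passed with rosiglitazone (2.63% of features were called) and 2 with retinoic acid (2.85%), and 0 with fenofibrate (3.33%), bezafibrate (0.904%) and Wy-14643 (0.191%). In quad it was 4 with rosiglitazone (6.86%), 1 with retinoic acid (2.42%), and 0 with fenofibrate (5.69%), bezafibrate (1.63%) and Wy-14643 (0.0163%). For those 0 counts, limma's unadjusted p was 0.05 or less for 10, 4 and 5 transporters in soleus and for 12, 7 and 2 in quad. The low counts rest partly on single arrays. The 4 soleus calls became 10 without vehicle rat 1022 and 9 without all 3 soleus arrays in doubt, and the 5 quad calls became 9 without vehicle rat 1068 but stayed 5, the same genes and compounds, without all 4 quad arrays in doubt. The shares of all features called with those arrays left out are not given here. These changes in count are therefore not read as particular to transporters. Among the soleus calls gained without the arrays in doubt were Slc38a4 with fenofibrate and with Wy-14643 (0.36 each) and Slc38a1 with fenofibrate (0.38). Slc2a4 did not pass in either muscle, with values from -0.12 to 0.04 in soleus and from -0.03 to 0.08 in quad.

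Rosiglitazone raised Slc1a3, a glutamate transporter, and Slc2a3 (GLUT3), a high-affinity glucose transporter best known from neurons, in both muscles. In soleus, Slc1a3 vehicle arrays ran from -1.22 to 0.55 and rosiglitazone arrays from 0.14 to 1.33 around 0.45, all 20 above their day's vehicle mean. The difference was 0.51 (SE 0.07, adjusted p = 7.05e-08). In quad it was 0.35 (SE 0.08, adjusted p = 0.00263), with 15 of 16 arrays above their day's vehicle mean, and the call was lost without day 4. Slc2a3 vehicle arrays ran from -0.30 to 0.15 in soleus and from -0.09 to 0.17 in quad. Its rosiglitazone arrays ran from 0.08 to 0.40 in soleus, with 16 of 20 above the highest vehicle array, and from 0.09 to 0.27 in quad, with 12 of 16. The differences were 0.24 (SE 0.03, adjusted p = 2.16e-12) and 0.17 (SE 0.02, adjusted p = 1.57e-15). Among the 5 Slc2a3 probes, 1 carried most of this. It gave 0.81 in soleus and 0.69 in quad, while the others lay between 0.00 and 0.14 in soleus and between -0.02 and 0.09 in quad. In soleus the same probe gave 0.35 with bezafibrate, 0.23 with retinoic acid, 0.15 with fenofibrate and 0.06 with Wy-14643. In quad it gave -0.09 to 0.12 with the compounds other than rosiglitazone. In liver it ran from -0.02 with Wy-14643 to 0.25 with rosiglitazone. Slc2a3 as a gene was also called higher in liver with fenofibrate and rosiglitazone, and both calls were lost with 1 probe per gene. With the probe of fewest missing values alone, the gene was 0.14 in soleus (adjusted p = 0.168) and 0.09 in quad (adjusted p = 0.0725) and did not pass.

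Markers of other cells moved in the same muscles. Of 6 adipocyte markers, 2 rose with rosiglitazone in each muscle, Fabp4 (1.36 in both) and Lipe (0.40 in soleus, 0.44 in quad), and Plin1, Lep, Retn and Cfd did not pass. The list's mean ran from -0.19 to 0.78 in treated soleus against -0.50 to 0.77 in vehicle, and from -0.23 to 0.97 against -0.49 to 0.72 in quad. The endothelial markers did not move together. Kdr rose by 0.75 in soleus and 0.92 in quad, whereas Pecam1 was -0.25 and -0.32, and Emcn was -0.455 in quad. The other markers of the endothelial list are not given here. The part of adipocytes and endothelial cells in the rise of Slc1a3 and Slc2a3 was not tested.

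The other quad calls with rosiglitazone were Slc2a5 (0.23, adjusted p = 0.0239), lost without day 3 or day 4 or with 1 probe, and Slc3a1 (-0.29, adjusted p = 0.000629), lost without day 3. With retinoic acid, Slc6a4, the serotonin transporter, fell in quad by 0.28 (adjusted p = 0.000295), with arrays from -0.74 to 0.25 and 16 of 18 below their day's vehicle mean. In soleus it fell by 0.41 (adjusted p = 0.0174), with 18 of 20 below, a call lost without day 2, 3, 4 or 5. Cd74, of the macrophage and leukocyte markers, was -0.44 in soleus and -0.38 in quad. The count over that list is not given here, and the part of such cells in the fall of Slc6a4 was not tested. Soleus Slc1a1, a neuronal-type glutamate and cysteine carrier, rose with retinoic acid (0.295, adjusted p = 0.0163), with 18 of 20 arrays above their day's vehicle mean. The nerve marker Ncam1 rose in the same muscle (0.68, adjusted p = 1.41e-07), 1 of 5 nerve and Schwann cell markers measured to do so, while 1 fell. The list's mean ran from -0.37 to 0.53 in treated soleus against -0.45 to 0.45 in vehicle, and its part in the value of Slc1a1 was not tested.

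**Figure D4:**
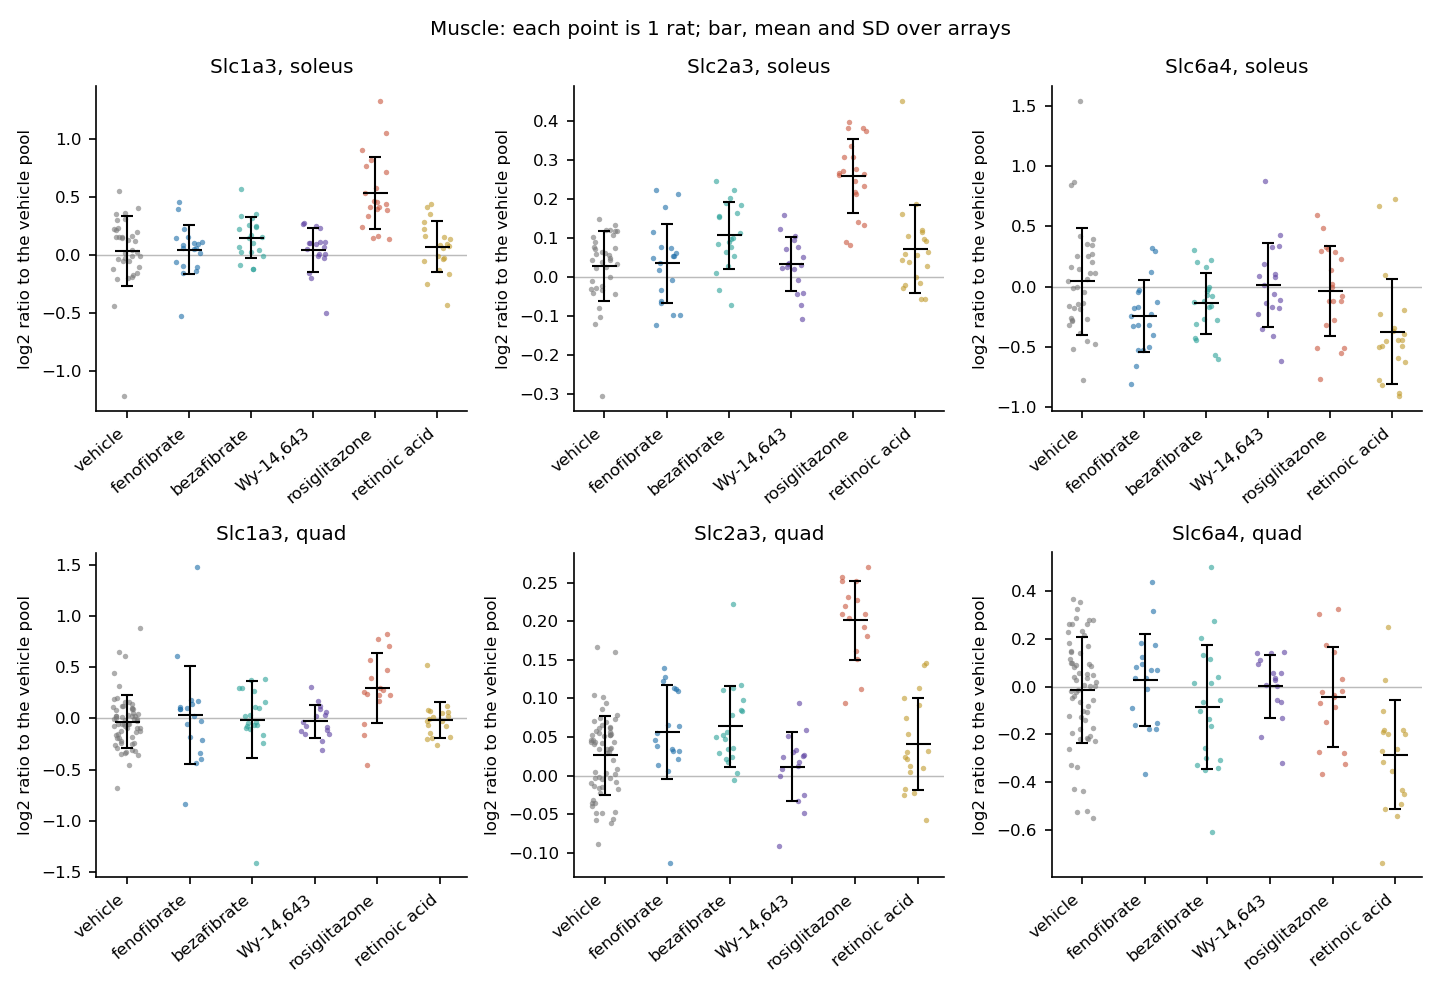
Each point is 1 array of soleus or quad, with the log2 ratio to the vehicle pool on the vertical axis and the treatments on the horizontal axis, for the transporters called in muscle. Slc2a3 is high in the rosiglitazone groups of both muscles, with 16 of 20 soleus and 12 of 16 quad arrays above the highest vehicle array.

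The responses of tissues were compared directly. Liver minus quad was called for 14, 9, 13, 9 and 11 transporters with fenofibrate, bezafibrate, Wy-14643, rosiglitazone and retinoic acid, against 22.6%, 10.1%, 24.1%, 13.6% and 15.9% of features. Liver minus soleus was called for 13, 5, 14, 5 and 6, against 16.9%, 6.16%, 20.5%, 5.65% and 12.7%. Its 43 calls fell to 25 with the rat, which gave several tissues, as a block. Slc2a2 with Wy-14643 differed by -1.19 between liver and quad and by -1.16 between liver and soleus, and Slc3a2 by 0.47 and 0.36. Slc43a2 with retinoic acid differed by -0.60 and -0.63, and each of these was past the threshold with and without the block. The liver and soleus difference of Slc3a2 was lost without day 6 (adjusted p = 0.0607). Slc6a6 with fenofibrate differed by -0.84 between liver and soleus, and this call was lost with the block (adjusted p = 0.144).

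Between the slow and the fast muscle few differences passed. Soleus minus quad was called for 3 transporters with fenofibrate, against 5.43% of features, namely Slc2a1 (-0.17), Slc38a10 (-0.15) and Slc6a9 (-0.15). With bezafibrate, Wy-14643, rosiglitazone and retinoic acid the count was 0, where 0.0491%, 0.00545%, 0.0382% and 0.0709% of features were called, and limma's unadjusted p was 0.05 or less for 2 to 4 transporters. With the rat as a block, 0 transporters were called over all 5 compounds, and 23 tests had an unadjusted p of 0.05 or less, beside 25 without the block. The count was also 0 without day 4, 5 or 6.

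EDL arrays had only the vehicle pool as a reference, so a difference common to all single rats cannot be told apart from a treatment effect. Against the pool, limma called 15 of 52 transporters with fenofibrate, 15 with bezafibrate, 17 with Wy-14643, 15 with rosiglitazone at 10 mkd and 18 with retinoic acid, where 34.6%, 33.9%, 47.1%, 37.2% and 40.4% of features were called. Slc2a4 was -0.42 to -0.60, Slc38a2 -0.43 to -0.54, Slc2a8 -0.22 to -0.30 and the creatine transporter Slc6a8 0.39 to 0.61 over the 5 compounds. With the arrays of the other 4 compounds as the reference, 1 of these 80 calls was left, Slc2a3 with rosiglitazone. Its arrays ran from 0.07 to 0.24 around 0.14 (n = 9), and those of the other compounds had means from -0.04 to -0.02. The difference was 0.16 (SE 0.02, limma adjusted p = 8.5e-05). The same probe stood out as in soleus and quad, at 0.54 against -0.11 in the other compounds.

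Rosiglitazone at 100 mkd was set against 10 mkd on day 4 in EDL. No transporter was called (0 of 52, 0.0108% of features), and 4 had an unadjusted limma p of 0.05 or less. Slc2a3 was 0.15 higher at 100 mkd (adjusted p = 0.959).

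**Figure D5:**
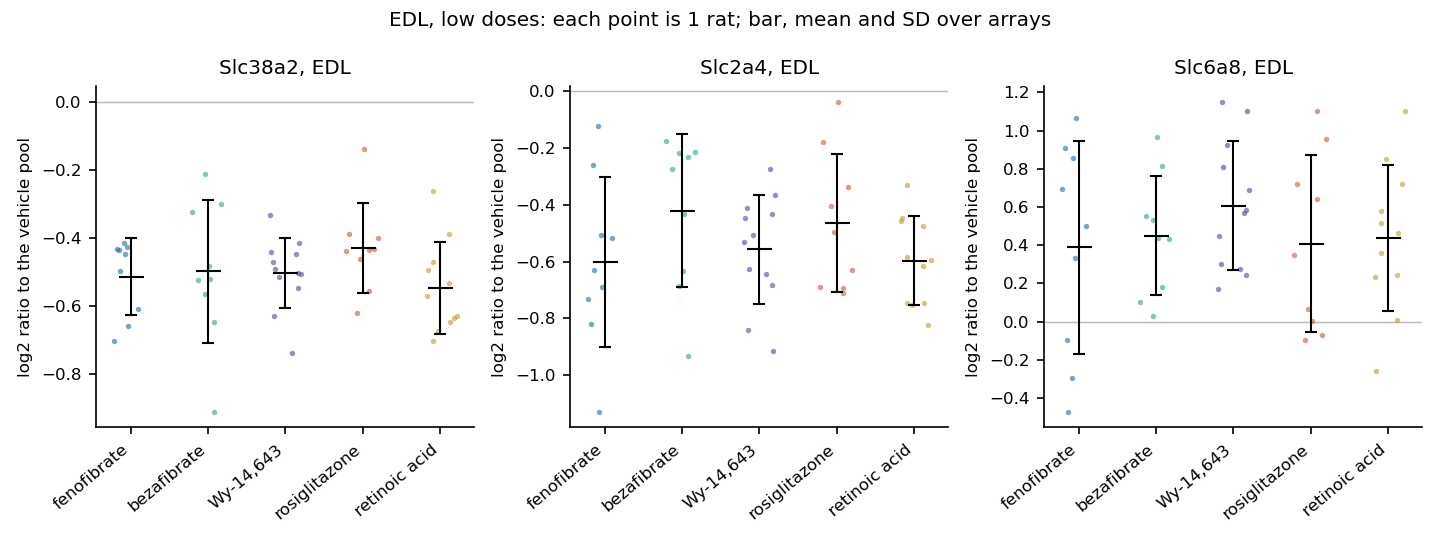
Each point is 1 EDL array, with the log2 ratio to the vehicle pool on the vertical axis and the compounds on the horizontal axis. Slc2a4 and Slc38a2 lie below 0 in all groups.

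Lists of genes that handle or sense the transported solutes were counted in liver beside the shares of all features called, which were 37.0%, 21.3%, 40.2%, 22.7% and 29.2% with fenofibrate, bezafibrate, Wy-14643, rosiglitazone and retinoic acid. Many counts lie near or below those shares, and nothing particular to a list is read from them. Of 24 genes of the amino acid stress response, which cells mount when amino acids run short, 8 rose and 1 fell with fenofibrate, 5 and 2 with bezafibrate, 8 and 2 with Wy-14643, 0 and 2 with rosiglitazone, and 12 and 2 with retinoic acid. The tyrosyl-tRNA synthetase Yars1 rose by 0.62 with Wy-14643 and 0.50 with fenofibrate, and the starvation hormone Fgf21 was -1.04 with retinoic acid. Of 37 genes of amino acid catabolism, 9 rose and 5 fell with fenofibrate, 0 and 6 with bezafibrate, 10 and 9 with Wy-14643, 2 and 7 with rosiglitazone, and 9 and 8 with retinoic acid. The glycine methyltransferase Gnmt rose by 1.11 and the ornithine aminotransferase Oat by 0.62 with retinoic acid, and the cysteine dioxygenase Cdo1 was -0.73 with bezafibrate. Of 25 genes of glucose trapping and release, 4 rose and 7 fell with fenofibrate, 2 and 3 with bezafibrate, 8 and 9 with Wy-14643, 5 and 3 with rosiglitazone, and 3 and 8 with retinoic acid. Slc37a4, which carries glucose 6-phosphate into the endoplasmic reticulum for release as glucose, was -1.16 with Wy-14643, -0.91 with fenofibrate and -0.76 with bezafibrate, beside the falls of Slc2a2. Its partner enzyme G6pc1 was -1.17 with fenofibrate. Other genes of this list rose, among them Pfkfb1 by 1.85 with fenofibrate and Txnip by 1.24 with bezafibrate. Of 20 genes of the mTORC1 pathway, which senses amino acids, 5 rose and 4 fell with fenofibrate, 4 and 3 with bezafibrate, 7 and 3 with Wy-14643, 5 and 2 with rosiglitazone, and 3 and 6 with retinoic acid.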

How the data were processed

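The 484 arrays are 2-colour arrays of rat liver, soleus, quad and EDL. The authors deposited 1 log10 ratio per probe and array. Its scale and direction are not stated, and background correction, dye normalization and software are not given in the sources used here. The values are centred near 0 and bounded at 2 on the log10 scale, and 0.91% are missing. They were multiplied by 3.32 to give log2 ratios, with no further normalization. Of 23653 probes, 15260 had 1 gene symbol in the platform annotation, 17 several and 8376 none. Averaging the probes of each gene left 18603 features, and a feature needed a value on 80% of a tissue's arrays. Samples were grouped by tissue, compound, dose and day from the labels.

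Per tissue, limma 3.58.1 in R 4.3.3 fitted a mean for each compound and day. Contrasts with same-day vehicle were averaged over days, with Benjamini-Hochberg adjustment within a comparison at 0.05. Array number limits the precision. In liver, 14 to 16 vehicle and 2 to 3 treated arrays per day were available. Tissues of a rat were paired by the rat number in the labels. The deviations of a rat's tissues correlated with a median of 0.25 for soleus and quad (111 rats), 0.135 for liver and soleus (106) and 0.139 for liver and quad (121), against -0.054, -0.031 and -0.017 for different rats. Nothing says whether RNA of a rat was labelled more than once, so p-values measure the spread between these arrays.

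The members, gene lists and tests were chosen with earlier results of these data known. Genes named are the 25 members with the smallest adjusted p over the comparisons with vehicle, 17 transporters of known role whether or not they passed (15 were on the array), and up to 4 genes per other list. A few more were named after their values were seen. Alternatives were 1 probe per gene, complete values only, other scalings and weights, the pool as reference, each day left out, the rat as a block and the arrays in doubt left out. Promoters came from RefSeq (GRCr8), matched by gene ID.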

Additional observations from a re-analysis of the deposited data

Results flagged for a closer look

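Several responses differed between tissues in a test of the difference itself. Between liver and quad, the difference was -0.73 for Slc6a6 and -0.61 for Slc7a7 with fenofibrate. With retinoic acid it was -0.64 for Slc1a2, -0.60 for Slc43a2 and 0.41 for Slc7a7. With Wy-14643 it was -1.19 for Slc2a2, -0.87 for Slc2a5, 0.47 for Slc3a2 and -0.58 for Slc6a8. Between liver and soleus, the difference was -0.84 for Slc6a6 and -0.60 for Slc7a7 with fenofibrate, and -0.62 for Slc1a2 and -0.63 for Slc43a2 with retinoic acid. With Wy-14643 it was -1.16 for Slc2a2, -0.87 for Slc2a5, 0.36 for Slc3a2 and -0.69 for Slc6a8. Between soleus and quad with fenofibrate, it was -0.17 for Slc2a1, -0.15 for Slc38a10 and -0.15 for Slc6a9. All 3 of the latter, and Slc6a6 between liver and soleus, were lost with the rat as a block. Both Slc2a5 differences were lost with 1 probe per gene (-0.065 and -0.015, adjusted p = 0.724 and 0.965). Between liver and quad, Slc6a6 with fenofibrate and Slc7a7 with retinoic acid were each lost in 3 of 13 alternatives.

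One array stood apart within its group. For Slc38a2 in EDL with rosiglitazone at 10 mkd, the highest of 9 arrays was -0.14, far from the others by Dixon's criterion. The check covered only EDL arrays, for Slc38a2, Slc2a4, Slc6a8 and Slc2a3, and left out the groups of Wy-14643 and retinoic acid. Liver, soleus and quad were not checked. Among the 16 groups checked, this group was the only one flagged, and chance gives about 1 in 20.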

How the results depend on the processing

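Of the 88 named differences called, 38 kept their call under every alternative, among them Slc2a2 with Wy-14643 and fenofibrate, Slc3a2 with the 3 PPAR alpha agonists, and Slc7a7 with 4 compounds in liver, and 50 lost it under at least 1. With 1 probe per gene the sign turned for Slc2a5 with Wy-14643 (0.005) and fenofibrate (0.174) and for Slc7a10 with Wy-14643 (0.118), bezafibrate (0.053) and fenofibrate (0.055). The 89 liver calls stayed between 71 and 102. Array quality weights gave 12 calls in quad, 13 in soleus, 85 for liver minus quad, 68 for liver minus soleus and 15 for the change per day. Arrays scaled to one spread gave 9 in quad, 9 in soleus, 11 for Wy-14643 minus rosiglitazone and 0 for soleus minus quad (24 at an unadjusted limma p of 0.05 or less). With the pool as reference there were 34 calls in quad and 13 in soleus. With the other compounds as reference, EDL had 1. Left-out days gave, in quad, 3 calls without day 4 and 8 without day 5; in soleus, 7 without day 3 and 2 without day 4 or day 5; for liver minus soleus, 27 without day 6; for soleus minus quad, 9 without day 3 and 0 without day 4, 5 or 6 (20 to 21 at an unadjusted p of 0.05 or less). Leaving out single arrays gave 5 to 9 calls in quad, 5 to 10 in soleus and 0 for the EDL doses. Without all arrays in doubt, soleus had 9 and soleus minus quad 1. With the rat as a replicate block, liver minus soleus had 25 calls, liver minus quad 47 and soleus minus quad 0, also 0 without the arrays in doubt. It ended 1 other named difference, that of Slc6a6 between liver and soleus with fenofibrate. Shares of all features called under the alternatives are not given, here or above. Changes in the counts are therefore not read as particular to transporters. Depth does not apply to ratios, and signal over background was not analysed here.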
